A study of Mus musculus with 2 samples.

Results

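CD4 T cells were picked out of liver non-parenchymal cells by the unique molecular identifiers (UMIs, each standing for 1 captured RNA molecule) counted in each barcode. A member was a barcode with at least 200 genes, at most 20% mitochondrial UMIs, at least 2 UMIs of the T cell receptor chains Cd3d, Cd3e and Cd3g together and at least 1 Cd4 UMI. It also had no Cd8a or Cd8b1 UMI, fewer than 2 Trdc UMIs, at most 1 UMI of the B cell genes Cd79a, Cd79b and Ms4a1, and at most 5 UMIs of the macrophage genes C1qa, C1qb and C1qc. The members were therefore selected on their Cd3, Cd4, Cd8, Trdc, B cell gene and C1q counts, and the levels of those genes in members are fixed in part by the rule and are no results. The rule found 46 members among 11370 kept barcodes in the Mfap2+/+ library and 109 among 12723 in the Mfap2-/- library, 155 of 24093 in all. Cells came from livers of mice given carbon tetrachloride (CCl4), a hepatotoxin used to produce liver fibrosis, by intraperitoneal injection for 8 weeks, and both libraries carry that treatment. The mice were either Mfap2+/+ or Mfap2-/-, the latter lacking microfibril-associated protein 2, a component of extracellular microfibrils. Strain, age and the number of animals behind each library are not given in the sources used here, and no library without CCl4 was analysed here. With 1 library per genotype no difference between genotypes can be tested, and genotype cannot be told apart from the library or the animals behind it. All intervals below are 95% intervals that cover counting error only.

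CD4 T cells recognise peptides presented on MHC class II and act mainly through the cytokines and surface ligands they display. In the liver they comprise recirculating naive and memory cells, type 1, type 2 and type 17 helper cells, and regulatory T cells (Tregs) that depend on the transcription factor Foxp3. Some natural killer T (NKT) cells, which require the transcription factor Zbtb16 and are abundant in mouse liver, also carry Cd4.

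Transcripts that the rule did not use were checked against the T cell label. Of 10 such CD4 T cell genes, 6 were higher than in CD8 T cells in both libraries and 1 was lower in both. Over all 7098 genes in that comparison, 2531 were higher in both and 1769 lower. Trac and Cd40lg are given as examples of the 10, but Trac was not among the 6. In the wild-type library it had 65 UMIs of 264740 in members and 430 of 1360555 in CD8 T cells, a lower level in members. Trac, the constant region of the T cell receptor alpha chain, had a UMI in 31 of 46 (67.4%) wild-type and 88 of 109 (80.7%) knockout members, against 1.16% and 1.93% of B cells. Cd40lg, the helper ligand that engages CD40 on B cells and macrophages, had a UMI in 39.1% and 48.6% of members and in 9.73% and 3.60% of CD8 T cells, the cells that passed the same limits with a Cd8 UMI and no Cd4 UMI. Median depth was 5110.5 and 5764 UMIs in members, 5730.5 and 7137.5 in CD8 T cells, and 3652 and 4941 in B cells. The members held 264740 UMIs in the wild-type library and 684523 in the knockout library, so a gene with no UMI could be present at up to 11.3 and 4.38 CPM (UMIs scaled to a common total per class) respectively.

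The libraries shared 40 barcodes, and none of them was a member. Mfap2 itself had 257 UMIs in the kept wild-type cells and 4 in the kept knockout cells, and none in members of either library. RNA of other liver cells was present in members. At least 1 C1q UMI was carried by 91.3% of the wild-type and 93.6% of the knockout members and, alike, in 87.2% and 91.2% of B cells; the rule capped this count in members at 5. The haemoglobin and erythroid list summed to 782 CPM in wild-type and 161 CPM in knockout members (954 and 172 CPM in B cells), and the hepatocyte list to 64.2 and 249.8 CPM (99.1 and 331 CPM in B cells). Neutrophil and monocyte genes summed to more, 1809 CPM in wild-type and 2073 CPM in knockout members. Their sums were 2279 and 1787 CPM in B cells and 870 and 1303 CPM in CD8 T cells. The C1q limit removed 16 and 37 cells that met all other conditions. At the borders, 35 of 46 and 62 of 109 members had exactly 1 Cd4 UMI, and 339 and 320 otherwise identical T cells had none. Of the same kind, 5 and 13 members had 5 C1q UMIs while 6 and 8 cells with 6 were left out.

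CD4 T cells made up 0.405% of kept cells (interval 0.296 to 0.539) in the wild-type library and 0.857% (0.704 to 1.03) in the knockout library, a ratio of 2.12 (1.49 to 3.06). CD8 T cells went from 1.99% to 1.75% of kept cells and all T cells under the same limits from 5.73% to 5.67%. Among T cells without a Cd8 UMI, Cd4 was captured in 46 of 385 (11.9%) cells of the wild-type and 109 of 429 (25.4%) of the knockout library, or 3.93% (2.21 to 6.39) and 7.78% (5.42 to 10.8), with overlapping intervals, after thinning each cell to 1000 UMIs. When every cell was thinned before the rule was applied, 8 of 10312 wild-type and 10 of 11988 knockout cells still met the rule, and their ratio was 1.08 (0.382 to 3.14). The thinning left out 1058 and 735 shallower cells, and at these counts neither equality nor a ratio of 2.12 lies outside the interval. Outside T cells, a Cd4 UMI was found in 56 of 9592 (0.584%, 0.441 to 0.757) wild-type kept cells with no Cd3 UMI. In the knockout library it was found in 113 of 10341 (1.09%, 0.901 to 1.31) such cells. Among B cells it was found in 1 of 776 and 2 of 1192. T cells with both a Cd4 and a Cd8 UMI numbered 1 and 11. Whether the ratio of 2.12 is particular to CD4 T cells was not tested. Which of the T cells without a Cd4 UMI carry Cd4 was not tested.

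**Figure D1:**
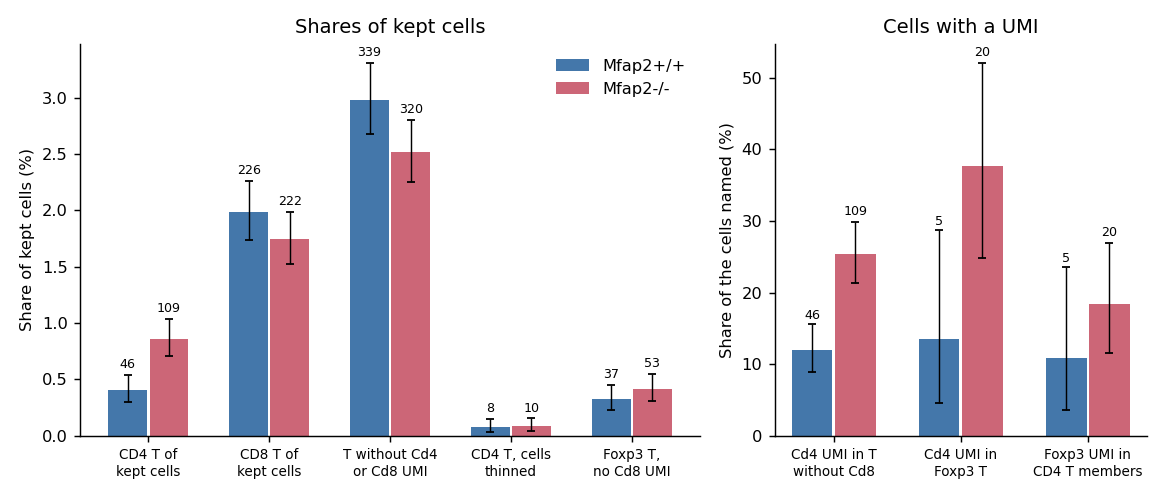
Left, shares of kept cells in percent for CD4 T, CD8 T, T cells with neither Cd4 nor Cd8 UMI, CD4 T after thinning every cell, and all Foxp3-detected T cells without Cd8. Right, share of the named cells with a Cd4 or Foxp3 UMI. Bars are 1 library each, error bars are exact 95% binomial intervals, and the number over each bar is the count of cells; the 46 against 109 members stand beside 37 against 53 Foxp3-detected T cells.

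Foxp3 marked 5 of 46 members (10.9%, interval 3.62 to 23.6) in the wild-type and 20 of 109 (18.3%, 11.6 to 26.9) in the knockout library. Thinning to 1000 UMIs left a Foxp3 UMI in 3 of 46 and 6 of 109 members in one random draw and in 0 and 7 in another, so the order is not resolved at equal depth. Foxp3 was found in 2 of 226 and 0 of 222 CD8 T cells (the latter allowing up to 1.35%) and in 0 of 776 (up to 0.387%) and 1 of 1192 B cells, the limits in brackets being those on the share of cells with a UMI. These shares lie below the lower bounds of both member intervals. All 25 Foxp3-detected members also had a UMI of Ctla4, the inhibitory receptor of activated and regulatory T cells, and of Ikzf2, the Treg-associated factor Helios. The greater number of Foxp3-detected T cells lay outside the members: 32 wild-type and 33 knockout cells had Foxp3 but neither Cd4 nor Cd8. Counting them all, Foxp3-detected T cells without Cd8 were 37 (0.325% of kept cells, 0.229 to 0.448) and 53 (0.417%, 0.312 to 0.545). Of these, 5 of 37 (13.5%) and 20 of 53 (37.7%) had a Cd4 UMI, with 9 and 27 Cd4 UMIs or 54.0 and 77.6 CPM. Their median depths were 3921 and 5786 UMIs, and after thinning Cd4 was seen in 3 of 37 and 1 of 53. Which Foxp3-detected cells were members thus depended on whether a Cd4 UMI was captured.

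Summed over members, 5715 genes outside the rule had at least 20 UMIs, and their median log2 ratio of knockout over wild type was 0.06, with 54.3% of them above 0. Of these genes, 431 were at least 2-fold higher (7.54%) and 219 at least 2-fold lower (3.83%) in the knockout members, counts against which those for each gene list are to be read. Scaling by the median of gene ratios in place of total UMIs shifted the median to -0.063 and gave 322 higher and 331 lower. The median of the same genes was 0.09 in CD8 T and 0.10 in B cells.

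Several genes of type 17 helper cells, Il1r1, Il23r, Il17a and Rora among them, were at higher levels in the knockout members. Of 12 type 17 genes, 9 had enough UMIs, 7 of them above 0 and 5 at least 2-fold higher, with a median of 1.06 (also with Il23r at its bound) against 0.02 in CD8 T and 0.23 in B cells. Il1r1, Il17a, Il22 and Il23r, 4 of these 5, reached the minimum of 20 UMIs through their knockout counts, so the count and the median describe the genes that passed and support nothing about the list. With a minimum of 50 UMIs the median was 0.25. Il1r1, the interleukin-1 receptor that supports type 17 cells, had 1 UMI in 1 of 46 wild-type members and 123 UMIs in 27 of 109 knockout members, or 3.78 and 179.7 CPM. Il23r, the receptor for interleukin-23, had no UMI in the wild-type and 37 in 12 knockout members, at least 4.77-fold higher against a floor of 3 counts (0 of 46 cells allows a share of cells with a UMI of up to 6.52%, which is no limit on the cells that express the gene). The effector cytokine Il17a had 11 UMIs in a single wild-type member and 72 in 14 knockout members. Detection therefore spread over more knockout cells for each of these genes. Rora, a nuclear receptor of type 17 and tissue-resident lymphocytes, was present in most members of both libraries and went from 1012 to 2112 CPM, a log2 ratio of 1.06 (0.87 to 1.25). Il22 rested on 3 knockout cells (1 and 37 UMIs), and Maf and Ahr, which are also expressed by other subsets, had ratios of 0.25 and -0.11 with intervals that include 0.

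The genes occurred together in the same knockout cells. Of 12 members with Il23r, 10 had Il1r1, and of 14 with Il17a, 12 had Il1r1. An Il1r1 UMI was carried by 2.17% and 24.8% of members and 3.74% and 9.40% of B cells. After thinning the shares were 0% and 9.17% of members and 0.258% and 2.27% of B cells. In the wider set of T cells without Cd8, whether or not Cd4 was seen, Il1r1 was at 65.5 and 175 CPM (log2 1.41, 1.14 to 1.70), Il23r at 46.2 and 79.8 CPM (0.78, 0.44 to 1.15) and Il17a at 48.0 and 82.1 CPM (0.77, 0.43 to 1.13). The direction was the same there and the ratios smaller, and wild-type cells with these transcripts were found among T cells in which no Cd4 was captured.

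**Figure D2:**
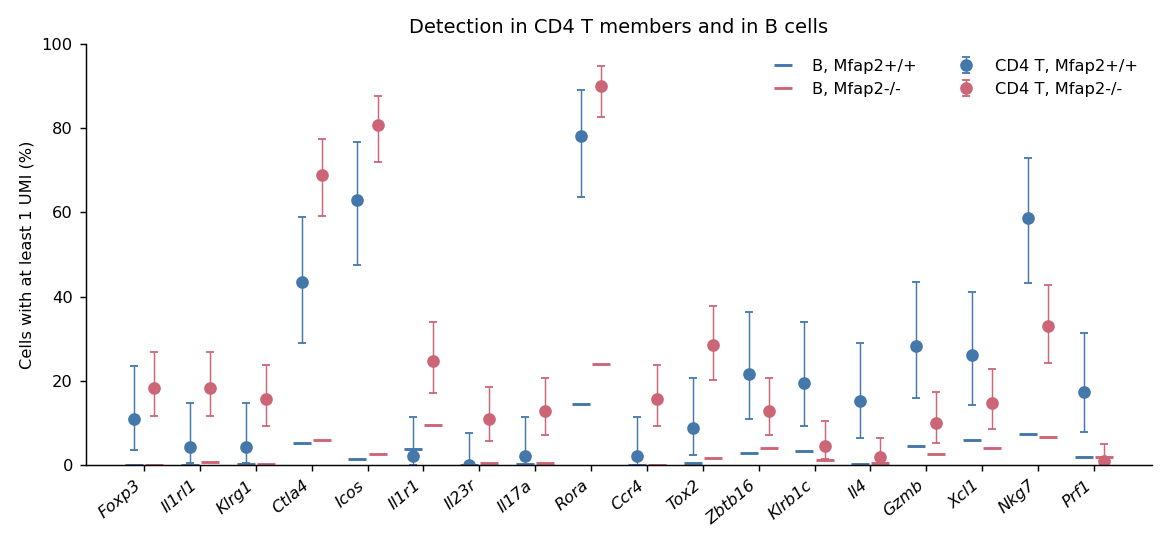
Percent of CD4 T members (circles, with exact 95% binomial intervals) and of B cells (dashes) with at least 1 UMI of 18 genes, in the Mfap2+/+ (46 members, 776 B cells) and Mfap2-/- (109 members, 1192 B cells) libraries. Il1r1, Il1rl1, Il23r and Tox2 sit higher in knockout members, and Zbtb16, Klrb1c, Gzmb, Nkg7 and Prf1 in wild-type members. The intervals of the 2 libraries overlap for several of these, Il1rl1, Il23r, Zbtb16 and Klrb1c among them, and depth was not made equal.

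Promoters are shown for Il17a and Il23r, which moved together and hold the letters AGGTCA, the core site that the nuclear receptor Rora binds. The letters AGGTCA, sought on both strands of the 250 bases before the start, occur in a listed promoter of 4 of the 9 type 17 genes matched and of 15.8% of 27025 genes in the RefSeq set (GRCm38.p6). Capitals mark each match, read 5′ to 3′ on the gene's strand.
Il17a, chr1:20730655-20730904, plus strand: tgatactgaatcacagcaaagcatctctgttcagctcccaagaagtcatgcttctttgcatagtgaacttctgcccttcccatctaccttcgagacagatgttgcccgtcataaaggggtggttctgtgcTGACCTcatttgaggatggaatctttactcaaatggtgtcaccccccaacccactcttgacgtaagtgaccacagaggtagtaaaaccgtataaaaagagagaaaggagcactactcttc
Il23r, chr6:67491856-67492105, minus strand: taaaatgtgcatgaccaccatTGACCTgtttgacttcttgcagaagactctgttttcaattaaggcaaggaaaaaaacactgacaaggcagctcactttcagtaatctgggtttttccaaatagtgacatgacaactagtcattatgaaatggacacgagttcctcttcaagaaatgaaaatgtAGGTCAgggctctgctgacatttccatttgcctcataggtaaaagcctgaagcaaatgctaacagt
Il17a holds the site once and Il23r in both orientations. Il1r1, Il22 and Rora have no match in these windows. Whether Rora acts on any of these genes was not tested.

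Il1rl1, the interleukin-33 receptor ST2 found on tissue Tregs and type 2 cells, showed the largest ratio among the genes that met the naming rule. It had 4 UMIs in 2 of 46 wild-type members and 215 UMIs in 20 of 109 knockout members, or 15.1 CPM (4.12 to 38.7) and 314 CPM (274 to 359), a log2 ratio of 4.06 (3.0 to 6.27). In knockout members 15 of the 20 cells with Il1rl1 also had Foxp3, and the 5 richest cells held 58.1% of the UMIs. In Foxp3-detected T cells without Cd4 or Cd8, Il1rl1 was present in both libraries, with 91 UMIs (678 CPM) in 17 of 32 wild-type and 186 UMIs (994 CPM) in 24 of 33 knockout cells. Over all Foxp3-detected T cells without Cd8 the levels were 552 and 991 CPM, a log2 ratio of 0.83 (0.51 to 1.19). The ratio among members was thus far larger than that among all cells with the Treg transcript. Klrg1, a receptor of terminally differentiated effector Tregs, followed the same pattern with 3 and 65 UMIs in members (log2 2.67) and 186 and 273 CPM over all Foxp3-detected T cells (0.52, -0.05 to 1.19).

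Other Treg genes differed less. Of 16 Treg genes tested, 11 were above 0 and 1, Klrg1, at least 2-fold higher, with a median of 0.31. Klrg1 reached the UMI minimum through its knockout count, so the counts and the median describe only the genes that passed. Ctla4 had 404 and 631 CPM (0.63, 0.33 to 0.96) and a UMI in 43.5% and 68.8% of members, but its ratio was -0.022 after thinning. Icos, a costimulatory receptor of activated helper cells and Tregs, had 495 and 885 CPM (0.83, 0.56 to 1.12) and was detected in 63.0% and 80.7%. Tnfrsf9, the receptor 4-1BB, had 219 and 386 CPM (0.80, 0.40 to 1.25). Tnfrsf4, the receptor OX40, went the other way with 223 and 142 CPM (-0.66, -1.13 to -0.16), or 0.19 without the 5 members richest in it in each library.

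Among type 2 genes, 4 of 5 tested were above 0, with a median of 1.0, which is the ratio of Il4 itself and is no summary of the list. Ccr4 and Il1rl1 reached the minimum through their knockout counts. Gata3, the defining factor of type 2 cells that Tregs also express, had 189 and 292 CPM (0.61, 0.18 to 1.11), and -0.43 without Foxp3-detected members. Ccr4, a skin- and tissue-homing chemokine receptor, had a UMI in 1 wild-type and 17 knockout members, and Il13 had none in either library. Areg, an epidermal growth factor receptor ligand made by repair-associated Tregs, had 533 and 370 CPM (-0.53, -0.83 to -0.22). Its cells ran opposite to its level, with 12 of 46 wild-type and 47 of 109 knockout members positive, since the 5 richest wild-type members held 90.1% of the UMIs. Il4 had 21 UMIs in 7 wild-type cells and 113 UMIs in only 2 knockout cells, all 9 of which also had a Zbtb16 UMI. Without Foxp3-detected members the Areg ratio was 1.32, and without the 5 members richest in the gene in each library that of Il4 was -3.12. The levels of Areg and Il4 were therefore set by a few cells.

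Follicular helper and checkpoint genes had a median of 0.61 (CD8 T 0.56, B 0.26) with 9 of 12 above 0. Tox2 and Cxcr5 reached the UMI minimum through their knockout counts. The count and the median therefore describe only the genes that passed and support nothing about the list. Tox2, a factor of follicular helper and chronically stimulated T cells, had 5 UMIs in 4 wild-type and 72 in 31 knockout members (log2 2.23, 1.19 to 4.14), in 8.70% and 28.4% of cells and in 2.17% and 6.42% after thinning. Tox had 1122 and 1851 CPM (0.72, 0.54 to 0.91), with 0.81 in CD8 T cells. Pdcd1, the inhibitory receptor PD-1, had 56.7 and 113.9 CPM (0.93, 0.20 to 1.91), and Cxcr5, the follicle-homing receptor, was seen in 2 and 17 members but also in 72.2% and 79.9% of B cells.

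Naive and lymphoid-homing genes were split, with 7 of 11 above 0, 3 at least 2-fold higher and a median of 0.21. These 3 were Lef1 (128 and 321 CPM, log2 1.29), Tcf7 (52.9 and 127 CPM, 1.18), both transcription factors of naive and stem-like T cells, and the lymph node homing receptor Ccr7 (30.2 and 89.1 CPM, 1.41). Ccr7 and Tcf7 reached the UMI minimum largely through their knockout counts, so the counts describe only the genes that passed. Ccr7 was present in 89.2% and 90.5% of B cells, and the Lef1 ratio was -0.20 in the 11 and 47 members with at least 2 Cd4 UMIs. Satb1, a chromatin organiser of naive T cells, was lower with 1058 and 709 CPM (-0.58, -0.79 to -0.36), and at 0.95 without the members that had an NK or NKT gene UMI. Cxcr6 or Cxcr3, receptors of liver-resident and type 1 cells, had a UMI in 22 of 46 (47.8%) wild-type and 55 of 109 (50.5%) knockout members, and in 1.93% of B cells of either library. Among homing receptors Gpr183, an oxysterol receptor, had a ratio of 1.11 (0.65 to 1.67) and the integrin subunit Itga4 one of 1.04 (0.71 to 1.40).

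Most cytotoxic and NKT-associated genes tested were at lower levels in the knockout members. Of 9 cytotoxic genes, 7 were below 0 and 5 at least 2-fold lower, with a median of -1.11 against 0.04 in CD8 T and -0.70 in B cells. This median is the ratio of Nkg7 itself and is no summary of the list. Klrd1 reached the UMI minimum largely through its wild-type count, so the counts describe only the genes that passed. The cytotoxic median was -0.050 in members with at least 2 Cd4 UMIs and -0.44 over all T cells without Cd8. Gzmb, the protease granzyme B, had 52 UMIs in 13 wild-type and 27 in 11 knockout members, or 196 and 39.4 CPM (-2.29, -3.04 to -1.62). It was also lower in CD8 T cells (-1.90). Prf1, the pore-forming perforin, too sparse for the list count, had 8 UMIs in 8 wild-type members and 1 UMI in 1 knockout member (-3.54, -9.84 to -1.47), and its ratio in CD8 T cells was 0.68. Nkg7, a cytotoxic granule membrane protein, had 423 and 196 CPM (-1.11, -1.49 to -0.74) and a UMI in 58.7% and 33.0% of members, or 28.3% and 15.6% after thinning, against 7.35% and 6.63% of B cells. The chemokine Ccl4 had 1598 and 529 CPM (-1.59, -1.80 to -1.39), yet 65.2% and 63.3% of members were positive and 5 cells held 72.6% of the wild-type UMIs. Gzma and Eomes were above 0, and the 51 knockout Gzma UMIs came from 5 cells (7 UMIs in 7 wild-type cells).

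All 7 NK and NKT marker genes tested were below 0, with a median of -1.79 (CD8 T -0.40, B -0.31) and a summed level of 1307 and 571 CPM. This median is the ratio of Zbtb16 itself and is no summary of the list. Klrb1c and Klre1 reached the UMI minimum largely through their wild-type counts, so the count of genes below 0 describes only the genes that passed. Zbtb16, also known as PLZF, had 75 UMIs in 10 of 46 wild-type and 56 UMIs in 14 of 109 knockout members (283 and 81.8 CPM). Klrb1c, the NK1.1 receptor, had 15 and 6 UMIs in 9 and 5 members. A UMI of Zbtb16, Klrb1c or Ncr1 was found in 14 of 46 (30.4%, 17.7 to 45.8) and 17 of 109 (15.6%, 9.36 to 23.8) members, and in 7.47% and 5.62% of B cells. In these cells Xcl1, a chemokine for cross-presenting dendritic cells, had 639.5 and 63.2 CPM, and in all other members 48.1 and 25.8 CPM. In the wider set of T cells without Cd8, Zbtb16 was seen in 166 of 385 and 104 of 429 cells (log2 -0.60), and Gzmb (-2.29) and Xcl1 (-1.21) were lower as well. Without the NK or NKT gene-positive members the ratios of Gzmb (-2.32), Nkg7 (-1.05) and Ccl4 (-1.68) were about as low as with them, whereas that of Xcl1 went from -2.96 to -0.97. Whether the smaller share of such cells among knockout members accounts for the remaining ratios was not tested.

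**Figure D3:**
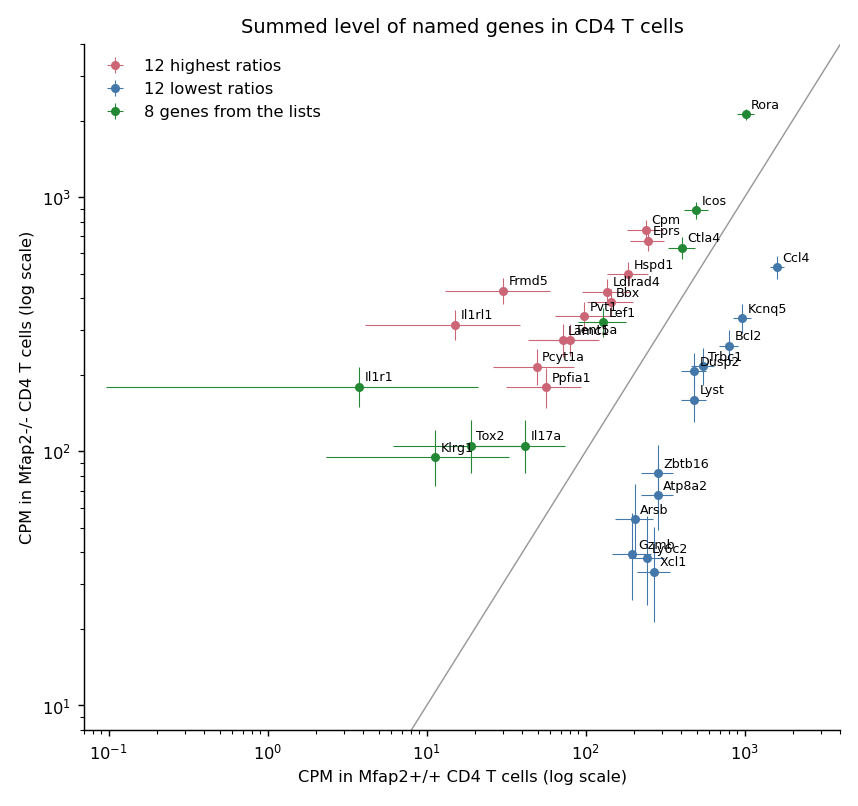
Summed level in CPM (log axes) of the 12 genes with the highest and the 12 with the lowest ratio among those that met the naming rule, and of 8 genes from the lists, in Mfap2+/+ (x) and Mfap2-/- (y) CD4 T members. Bars are exact 95% Poisson intervals and the line marks equal levels; Il1rl1 (15.1 and 314 CPM) lies farthest above it and Xcl1 (268 and 33.6 CPM) farthest below among the 24.

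The rule for named genes asked for a mean of 100 CPM, an interval that excluded 0 and a level in the members at least that of the other kept cells. It was met by 371 genes higher and 161 lower. The 12 highest were Il1rl1, Frmd5, Pcyt1a, Lamc1, Pvt1, Tent5a, Cpm, Ldlrad4, Ppfia1, Eprs, Hspd1 and Bbx, with ratios from 4.06 to 1.39. Frmd5, with 8 UMIs in 3 and 293 UMIs in 12 members, drew 90.8% of its knockout UMIs from 5 cells. Lamc1, the laminin gamma 1 chain, was seen in 8 wild-type and 54 knockout members (71.8 and 273 CPM, log2 1.86) and Cpm, the membrane carboxypeptidase M, in 17 and 69 (238 and 744 CPM, 1.62, but -0.33 with at least 2 Cd4 UMIs). Pvt1, a long non-coding RNA beside Myc, had 98.2 and 339 CPM (1.74). The 12 lowest were Xcl1, Ly6c2, Gzmb, Atp8a2, Arsb, Zbtb16, Bcl2, Ccl4, Lyst, Kcnq5, Trbc1 and Dusp2, from -2.96 to -1.22. Ly6c2, an antigen of memory T cells and monocytes, had 64 UMIs in 14 and 26 UMIs in 13 members (-2.64, -3.39 to -1.99). Bcl2, the survival factor, was found in 34 of 46 and 61 of 109 members (797 and 260.0 CPM, -1.61, -1.91 to -1.32), beside a ratio of -0.08 in CD8 T cells. Trbc1, a T cell receptor beta constant region, had 544 and 216 CPM (-1.33). Of 92 genes looked up, 35 overlap another gene in GENCODE vM21, Hspd1, Xcl1, Bcl2 and Kcnq5 among them, and reads of overlapping genes may not be told apart, because strand use in counting is not given in the sources used here.

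All 18 heat-shock and co-chaperone genes were above 0 in knockout members, 4 of them at least 2-fold, with a median of 0.56; the medians were 0.34 in CD8 T, 0.59 in B and 0.80 in all other kept cells. Hspa1a, an inducible Hsp70, had 925 and 1607 CPM (0.79, 0.60 to 1.0), Bag3, an Hsp70 co-chaperone, 30.2 and 131 CPM (1.97) and Hspb1, the small chaperone Hsp25, 15.1 and 109.6 CPM (2.56). Hspb1 had a UMI in 8.70% and 25.7% of members and in 13.8% and 29.3% of B cells. The heat-shock element GAANNTTC, sought as above, occurs in a listed promoter of 6 of 15 matched heat-shock genes and of 7.73% of all genes. Hspb1 is shown because it had the highest ratio of the list and holds the element in 2 places.
Hspb1, chr5:135887669-135887918, plus strand: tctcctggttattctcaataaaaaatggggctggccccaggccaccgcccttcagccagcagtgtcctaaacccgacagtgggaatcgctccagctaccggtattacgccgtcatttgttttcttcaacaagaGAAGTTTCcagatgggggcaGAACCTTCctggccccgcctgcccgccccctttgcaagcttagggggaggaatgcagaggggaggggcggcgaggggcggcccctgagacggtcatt

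Immediate early genes, which respond within minutes to receptor signals and to tissue dissociation, were 6 above and 11 below 0 with a median of -0.11. Jund had 2161 and 1313 CPM (-0.72, -0.87 to -0.56), Dusp1 2621 and 1560 CPM (-0.75, -0.89 to -0.61) and Dusp2 480 and 206 CPM (-1.22, -1.58 to -0.86). In CD8 T cells these were -0.57, -1.0 and -1.11. Type 1 genes had a median of -0.31 (CD8 T -0.28), with Ifng, the defining type 1 cytokine, at 468 and 364 CPM (-0.37, -0.68 to -0.04) and seen in 63.0% and 45% of members, or at a ratio of 0.29 without the members that had an NK or NKT gene UMI. Ccl5, a chemokine of effector T cells, had 3366 and 1987 CPM (-0.76, -0.88 to -0.64) in 84.8% and 63.3% of members, but also a UMI in 47.4% and 43.5% of B cells. Its ratio was 0.39 with at least 2 Cd4 UMIs and 1.83 in the 4 and 6 members with no C1q or B gene UMI. The proliferation genes Mki67 and Top2a had 52.9 and 109.6 CPM (0.97, 0.22 to 1.99) and 90.7 and 152 CPM (0.70, 0.09 to 1.45), and either was seen in 9 of 46 and 35 of 109 members (19.6% and 32.1%) and in 5.8% and 13% of B cells. The Top2a ratio was -0.017 without the members that had an NK or NKT gene UMI. The cell cycle list as a whole had a median of -0.36 with 3 genes above and 9 below 0.

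**Figure D4:**
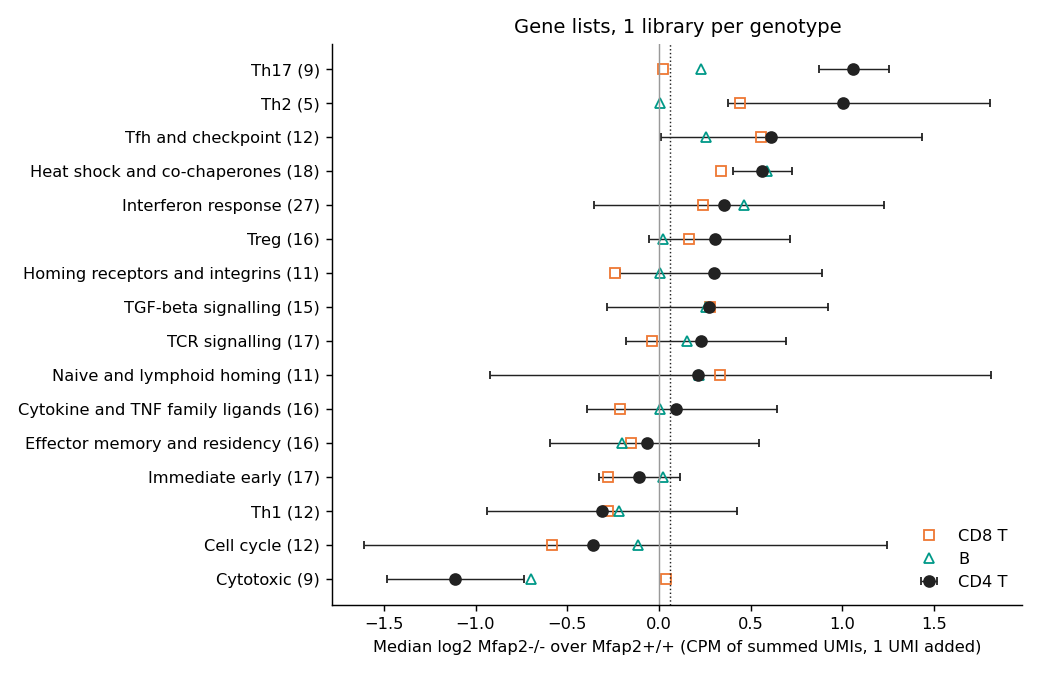
Median log2 ratio of Mfap2-/- over Mfap2+/+ for 16 gene lists (number of genes tested in brackets) in CD4 T members (filled circles), CD8 T cells (squares) and B cells (triangles). Bars give the exact 95% counting interval of the middle gene or the mean bounds of the 2 middle genes, and the dotted line is the median of all 5715 genes. The type 17 and cytotoxic medians lie farthest apart, at 1.06 and -1.11. These are the ratios of 1 gene each, Rora and Nkg7, among genes that passed the UMI filter, and support nothing about the lists.

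Within each library the members were set against CD8 T cells (226 and 222 cells), a comparison that does not mix libraries. Of 7098 genes with at least 20 UMIs over both classes in each library, 160 (2.25%) were at least 2-fold higher in both libraries and 73 (1.03%) at least 2-fold lower. By any amount, 2531 of them were higher in both libraries and 1769 lower in both, and the list counts are to be read beside these. Of 14 Treg genes, 12 were higher in both libraries and 10 of them at least 2-fold, with medians of 1.55 and 1.55. Cytokine and TNF family ligands were higher in both libraries for 10 of 14 genes. Cytotoxic genes were lower in both for 9 of 11, with medians of -1.03 and -1.79, and naive genes for 9 of 12. Interferon response genes were higher in both for 18 of 26 (medians 0.60 and 0.71), beside 0.10 and 0.04 over all genes.

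The 10 genes with the highest smaller ratio were Il4, Areg, Itgb8, Nav2, Cass4, Tnfsf11, Tnfrsf4, Stx11, Tiam1 and Plcb4. Areg had 533 against 28.7 CPM in the wild-type library (log2 4.19, 3.69 to 4.77) and 370 against 15.0 CPM in the knockout library (4.57, 4.03 to 5.28). Itgb8, the integrin subunit with which Tregs activate latent TGF-beta, had 121 against 4.41 CPM (4.60) and 149 against 8.40 CPM (4.06). Tnfsf11, the ligand RANKL, had 208 against 19.8 CPM (3.36) and 207 against 22.8 CPM (3.16). Tnfrsf4 had 223 against 12.5 CPM (4.10) and 142 against 15.6 CPM (3.14). Each of these was thus an order of magnitude or nearly so above CD8 T cells, whichever the genotype. Among the 10 lowest, Gzma, the protease granzyme A, had 26.4 against 445 CPM (-3.88) and 74.5 against 824 CPM (-3.44), and Bend4 15.1 against 183 CPM (-3.28) and 30.7 against 315 CPM (-3.30). Fam241a and Cdc14b followed with at most 18 UMIs in members. Gm44174, Gm44175, Klra7, Klra6, Smyd1 and 1700062C10Rik had 2 or fewer UMIs in the members of either library, so that their ratios depend on the count added. Smyd1, Gm44175 and Gm44174 lie close together on chromosome 6, from chr6:71213940 to chr6:71373284 (GRCm38). Whether the Cd8 limits of the rule, which separate the classes compared, bear on these ratios was not tested.

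**Figure D5:**
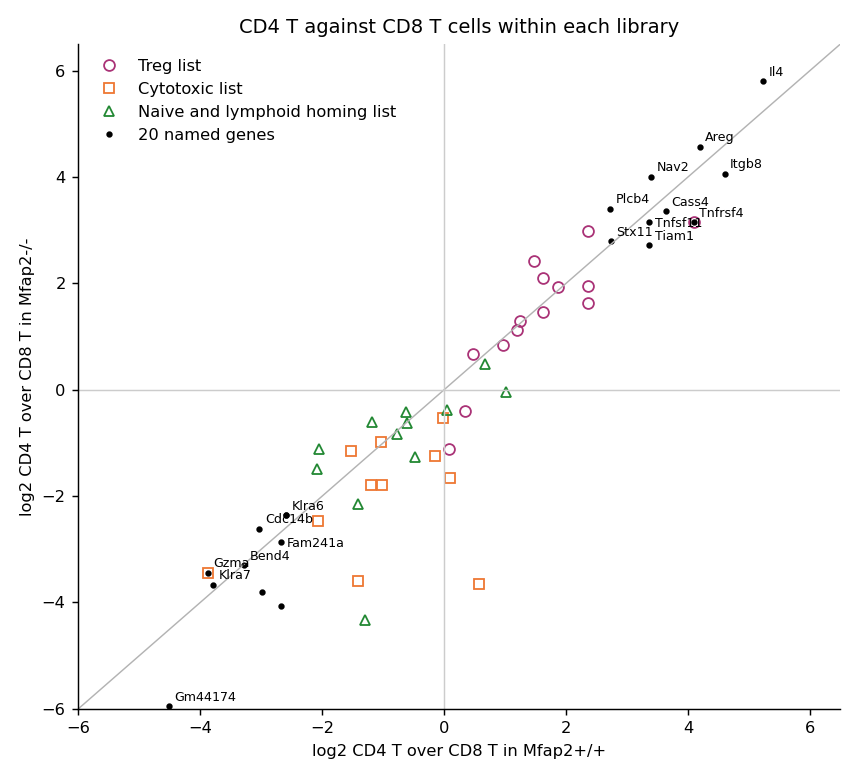
Log2 ratio of CD4 T over CD8 T cells in the Mfap2+/+ (x) and Mfap2-/- (y) library for the 20 named genes (dots) and for the Treg, cytotoxic and naive lists; each axis uses 1 library and 1 UMI was added to each sum. Treg genes sit in the upper right (medians 1.55 and 1.55) and cytotoxic genes mostly in the lower left (medians -1.03 and -1.79).

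Foxp3-detected members were compared with the other members in each library (5 against 41 and 20 against 89 cells). Of 2329 genes with at least 20 UMIs in each library, 57 (2.45%) were at least 2-fold higher and 49 (2.1%) at least 2-fold lower in both. After thinning to equal depth, which left 384 genes with enough UMIs, these were 10 and 9; the median depth of the Foxp3-detected members was 4519 and 7205 UMIs. The 10 highest were Tnfrsf9, Ikzf2, Itgb8, Il2ra, Myo1e, Tnfrsf4, Tnfrsf18, Tox, Stx11 and H2afz, and the 5 lowest Satb1, Cd40lg, Grap2, Atp8a2 and Furin. Tnfrsf9 had 1203 against 81.8 CPM (log2 3.84, 3.05 to 4.75) and 1167 against 145 CPM (3.0, 2.62 to 3.41). Ikzf2 had 3639 against 607 CPM (2.59) and 3359 against 544 CPM (2.62), and Il2ra, the high-affinity interleukin-2 receptor chain, 586 against 73.2 CPM (2.99) and 447 against 87.9 CPM (2.34). The wild-type values came from 5 cells. Cd40lg had no UMI in the 5 wild-type Foxp3-detected members and 6 UMIs in the 20 knockout ones, against 47 and 185 in the others. Satb1 had 92.5 against 1192 CPM (-3.28) and 106 against 894 CPM (-3.0). Areg was at 3639 CPM in the 5 wild-type and 739 CPM in the 20 knockout Foxp3-detected members, while in Foxp3-detected T cells without a Cd4 UMI it had 909 and 941 CPM.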

How the data were processed

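The authors deposited 1 filtered gene-by-barcode matrix per library, made with the Chromium Single Cell 3′ v3 chemistry per the labels' protocols, and its values are raw UMI counts. The file headers name Cell Ranger 7.0.1, while the submitters' processing notes list Cell Ranger 3.1.0, Seurat and mm10; cell calling and strand use are not given in the sources used here. The matrices held 82499307 and 118226367 UMIs in 11783 and 12872 barcodes, of which 413 and 149 were removed by the gene and mitochondrial limits. Counts were summed over cells of a class and given as CPM with exact Poisson intervals. Shares have Clopper-Pearson intervals, and ratios, with 1 UMI added to each sum, have exact conditional intervals. Genes with at least 20 UMIs were kept. No doublets were removed. Scrublet's own threshold marked 1 wild-type cell (0.0088%), so it had not worked there, and the highest scores were removed only as an alternative. Named genes were the 12 highest and 12 lowest ratios with a mean of 100 CPM, an interval without 0 and a level at or above that of other kept cells, the genes highest and lowest in both libraries for the other contrasts, and examples from the lists. Members and lists were chosen with earlier results of these data known. Promoters came from RefSeq (GRCm38.p6). Python 3.11.15, numpy 2.4.6, scipy 1.17.1, pandas 2.3.3, scanpy 1.11.5 and matplotlib 3.10.9 were used, and the calculations were tested on simulated data.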

Additional observations from a re-analysis of the deposited data

Results flagged for a closer look

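For 9 of 72 genes compared, the ratio of knockout over wild type had opposite signs in CD4 T and CD8 T cells and both counting intervals left out 0. The genes compared were the named genes with the highest and lowest ratios and examples from the lists. They were thus chosen in part on their CD4 T ratio. The share of such genes among all genes tested was not determined, so this count has no background to be read against. The difference between the cell classes was not tested, because each genotype has 1 library. Frmd5 had 3.66 in CD4 T and -0.71 in CD8 T cells, and Lamc1 1.86 and -1.38. Zbtb16 had -1.79 and 1.92, resting on 75 and 56 UMIs in CD4 T and 16 and 78 in CD8 T cells. Prf1 had -3.54 and 0.68, the first from 8 and 1 UMIs. Trac had 0.41 and -0.30, Cd40lg 0.63 and -0.90, and Satb1 -0.58 and 0.20. The proliferation genes Mki67 and Top2a had 0.97 and 0.70 in CD4 T cells and -0.58 and -0.63 in CD8 T cells.

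A Foxp3 UMI was present in 9.44% of wild-type and 10.3% of knockout T cells with neither a Cd4 nor a Cd8 UMI. These cells lie outside the members, and the shares are above those of B cells (0 of 776 and 1 of 1192).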

How the results depend on the processing

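No paired analysis was possible because each genotype has 1 library. Of the alternative values for shares, list medians and counts of genes, 246 stayed within the main value's interval or 1.5 times its count, and 35 moved. The log2 share ratio, 1.08, was 1.93 with at least 2 Cd4 UMIs, 0.42 with no C1q or B gene UMI (4 and 6 members) and 0.10 with every cell thinned. The Foxp3 share ratio ranged from -0.51 to 0.87 over 7 alternatives. The type 17 median, 1.06, was 0.61 with at least 4 Cd3 UMIs, 0.77 without NK or NKT gene-positive members, 0.77 over all T cells without Cd8 (added after seeing the data) and 0.25 with at least 50 UMIs. The cytotoxic median, -1.11, was -0.050 with at least 2 Cd4 UMIs and -0.44 over all T cells without Cd8. The heat-shock median was 0.93 with at least 2 Cd4 UMIs and 0.34 after thinning. Without NK or NKT gene-positive members the type 2 median was 1.85 and the immediate early median 0.17. The median of all genes was -0.071 with no C1q or B gene UMI, -0.063 under median-of-ratios scaling and -0.20 with no filter. Genes at least 2-fold higher and lower numbered 64 and 43 with no C1q or B gene UMI, 136 and 53 after thinning, 1025 and 2292 with no filter and 171 and 67 with at least 50 UMIs, and 331 were lower under median-of-ratios scaling. Foxp3-detected against other members, thinned, gave 10 higher and 9 lower. Leaving out the 5 members richest in a gene removes unequal shares, 5 of 46 and 5 of 109 members: the median of all genes became 0.55, with 1823 higher and 133 lower, and the medians 1.94 (type 2), 0.70 (type 17), 1.09 (Treg), 1.30 (interferon) and 0.85 (heat shock). Filters with fewer UMIs or members test fewer genes; for the other changes the cause was not tested.

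Of the values for single genes whose main interval left out 0, 23 changed sign. With at least 2 Cd4 UMIs these were Cpm (-0.33), Trac (-0.050), Ikzf2 (-0.12), Ifng (0.27), Ccl5 (0.39), Lef1 (-0.20) and Top2a (-0.062). With no C1q or B gene UMI they were Eprs (-1.14), Ccl5 (1.83) and Tox (-1.56). Without NK or NKT gene-positive members they were Ikzf2 (-0.071), Ifng (0.29), Satb1 (0.95) and Top2a (-0.017). Without Foxp3-detected members they were Ikzf2 (-0.16), Gata3 (-0.43) and Areg (1.32). After thinning it was Ctla4 (-0.022). Without the 5 richest members they were Tnfrsf4 (0.19), Areg (1.94), Il4 (-3.12), Il22 (-1.51) and Gzma (-3.12). Genes whose main interval included 0 are not in that count. Of these, Il2ra (down to -0.36), Maf (down to -0.035), Tgfb1 (down to -0.15) and Ahr (up to 0.27) also changed sign under some alternatives. Il1r1, Il1rl1, Rora, Gzmb, Nkg7 and Xcl1 kept their sign under every alternative run for them, with Il1r1 between 1.41 and 5.73 and Il1rl1 between 1.39 and 6.07.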

Other observations

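Genes of the TGF-beta pathway, the main fibrogenic cytokine pathway, were 12 above and 3 below 0 in knockout CD4 T cells, with a median of 0.27, beside 0.28 in CD8 T and 0.26 in B cells. Tgfb1 itself had 86.9 and 137 CPM (0.61, -0.01 to 1.39). Ski, a repressor of the pathway, had 261 and 495 CPM (0.91, 0.55 to 1.32), with 0.03 in CD8 T cells. Furin, a protease that matures the TGF-beta precursor, had 102 and 199 CPM (0.92, 0.36 to 1.62). Itgav, the integrin alpha V chain, had 1394 and 1978 CPM (0.50, 0.34 to 0.67). Of 27 interferon response genes, 20 were above 0 (median 0.35, B cells 0.46), among them Ifit1 with 461 and 747 CPM (0.69, 0.41 to 0.99).

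Il1r1 and Il1rl1, the genes with the 2 highest ratios of knockout over wild type described here, both lie in the interleukin-1 receptor cluster on chromosome 1, at chr1:40225080-40317257 and chr1:40429570-40465415 (GRCm38, plus strand). Il18r1, in the same cluster, had a ratio of 0.34 (-0.07 to 0.80). In knockout members Il1r1 was seen in 27 cells, 4 with Foxp3, and Il1rl1 in 20 cells, 15 with Foxp3.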
